A study of Mus musculus with 8 samples.

Results

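The Hippo pathway genes described here are 10 of the 16341 genes counted in RNA-seq libraries of sorted 4T1 cells, namely the coactivators Yap1 and Wwtr1 (TAZ), the DNA-binding partners Tead1 and Tead4, the TEAD cofactor Vgll3, and the classical targets Ccn1, Ccn2, Ankrd1, Amotl2 and Lats2. They were matched by symbol to Ensembl identifiers, and all 10 passed the filter on low counts. 4T1 is a mouse mammary carcinoma line, and no treatment or engineered allele is given for either group. The 4T1-Sca1+ and 4T1-Sca1- groups, with 4 libraries each, are hereafter Sca1+ and Sca1-. They were separated on magnetic columns by surface SCA1, the product of Ly6a, and the protocol text gives a CD45-negative gate. The source label names the parental line, as does the study, while the protocol text speaks of stained tumor. No label says that the libraries came from independent sorts, so the p-values measure the spread between these libraries only. The 10 genes were chosen by pathway knowledge together with earlier results of this same comparison, so their differences between the groups are given as a description, without a test.

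YAP and TAZ have no DNA-binding domain of their own and act on transcription mainly through TEAD proteins. The kinases of the Hippo cascade, LATS1 and LATS2 at its end, phosphorylate YAP and TAZ and thereby keep them out of the nucleus, so that the activity of the pair is set largely by protein modification and place in the cell rather than by the amount of their mRNA. In mammary epithelium and its carcinomas YAP/TAZ activity has been tied to mechanical cues, growth and stem cell traits, and transcripts such as Ccn1, Ccn2 and Ankrd1 are commonly used to read it out.

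TEAD proteins recognize the letters GGAATG, and these were searched on both strands (CATTCC on the other strand) in RefSeq promoter windows of GRCm38.p6, each holding 300 bases around an annotated start site. Windows were found for 7 of the 10 genes, and the letters occurred in all 7, against 16.6% of all 27025 genes with a window. Genes with several windows were counted when any of them matched. Among other YAP/TAZ target genes the letters were found in 3 of the 11 with a window (Axl, Crim1 and Ptpn14). No window was found for Tead1, Tead4 and Ccn2. The bases upstream of the start site are printed below for the genes whose values the results turn on, with the match in capitals. Those of Ccn1, Ankrd1 and Vgll3 are shown over 250 bases because these genes were lower in Sca1+ cells, and those of Yap1, Wwtr1 and Amotl2 over 60 bases as the coactivators and a feedback gene with the same letters.
Ccn1 chr3:145649986-145650235 (minus strand): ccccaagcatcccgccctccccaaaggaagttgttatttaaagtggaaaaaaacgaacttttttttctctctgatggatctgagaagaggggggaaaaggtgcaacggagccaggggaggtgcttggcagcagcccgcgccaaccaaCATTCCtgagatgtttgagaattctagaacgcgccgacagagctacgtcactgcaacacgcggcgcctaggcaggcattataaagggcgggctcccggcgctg
Ankrd1 chr19:36119845-36120094 (minus strand): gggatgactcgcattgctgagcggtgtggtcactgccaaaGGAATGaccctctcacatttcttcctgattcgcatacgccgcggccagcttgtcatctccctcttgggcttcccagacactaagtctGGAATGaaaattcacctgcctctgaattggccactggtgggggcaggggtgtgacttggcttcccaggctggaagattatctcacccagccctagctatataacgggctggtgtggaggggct
Vgll3 chr16:65814939-65815188 (plus strand): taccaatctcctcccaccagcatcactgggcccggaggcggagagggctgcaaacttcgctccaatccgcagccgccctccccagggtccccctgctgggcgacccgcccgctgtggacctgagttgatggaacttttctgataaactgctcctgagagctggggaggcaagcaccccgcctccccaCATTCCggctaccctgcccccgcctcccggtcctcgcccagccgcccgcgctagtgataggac
Yap1 chr9:8004705-8004764 (minus strand): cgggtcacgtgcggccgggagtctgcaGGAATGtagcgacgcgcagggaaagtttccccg
Wwtr1 chr3:57576014-57576073 (minus strand): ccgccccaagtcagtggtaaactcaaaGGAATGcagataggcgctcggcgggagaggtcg
Amotl2 chr9:102717712-102717771 (plus strand): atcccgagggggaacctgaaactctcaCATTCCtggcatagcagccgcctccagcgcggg

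The single match of Ccn1 began 103 bases before its start site, that of Vgll3 63 bases before and that of Amotl2 65 bases before. Ankrd1 held a pair of matches, beginning 210 and 123 bases before. Both coactivator genes held a match at a similar distance, 141 bases before the start of Yap1 and 136 bases before that of Wwtr1. The RefSeq starts used for Ankrd1, Amotl2 and Lats2 lie inside the GENCODE genes, downstream of their first bases. The match of Lats2 began 4 bases after its start site, in the first of its 2 windows. The letters of the AP-1 site, TGANTCA, were found in 0 of the 7 genes, against 8.97% of all genes. A match is a stretch of letters and not a measured binding site, and genes with and without a difference between the fractions held one.

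**Figure D1:**
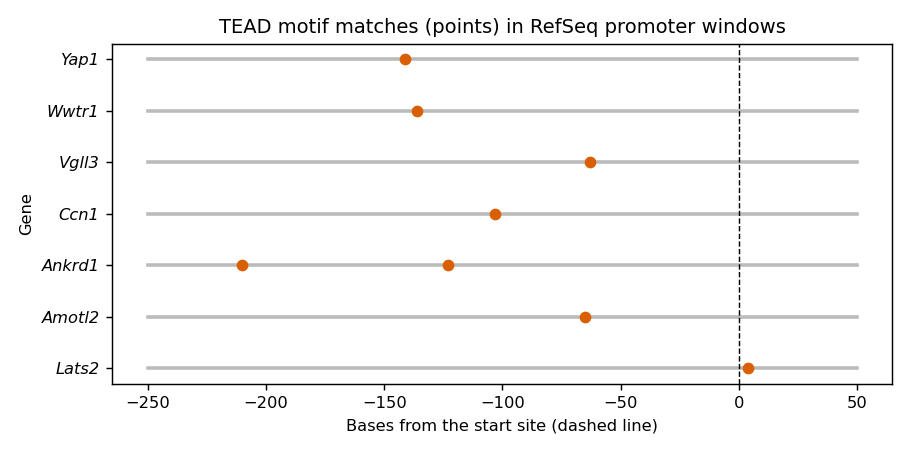
Position of each match to the TEAD motif (points) in the RefSeq promoter windows of 7 genes (grey lines), in bases from the start site. Matches lie between 210 bases before and 4 bases after the start, and Yap1 and Wwtr1 hold one as the target genes do.

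Total counts ran from 13561804 to 16968215 per library, and Ly6a checked the labels, with normalized counts of 145 to 193 in the Sca1+ libraries and 0 to 4.11 in the Sca1- libraries. Normalized counts are counts divided by 1 size factor per library. Replicate 3 of Sca1+ stood further from its group than other libraries, with a chi-square per degree of freedom of 6.75 to 9.67 against its 3 partners, where pairs without it gave 1.88 to 5.48. Of 11717 genes tested across both groups, 61.5% passed an adjusted p under 0.05 (edgeR's quasi-likelihood test), 31.3% higher and 30.2% lower in Sca1+ cells. The groups did not overlap for 54.7% of tested genes, 26.8% higher and 27.9% lower. A log2 fold change below -1 was found for 103 genes (0.879%) and one above 1 for 613 genes (5.23%). In bulk RNA, a change in every cell and a change in the share of cells that make a transcript cannot be told apart.

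Within the pathway, Yap1 hardly moved and Wwtr1 was higher in Sca1+ cells, while the 5 classical targets were lower. Of the 10 genes, 7 were lower and 2 were higher past the threshold, and the same 9 did not overlap between the groups. Because this contrast helped to choose them, nothing is read from that count against the shares above. Vgll3, Ccn2 and Ccn1 were among the 103 genes below -1, at ranks 9, 35 and 74 from the lowest. The plot of normalized counts by library shows how far apart the groups lay for each gene.

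**Figure D2:**
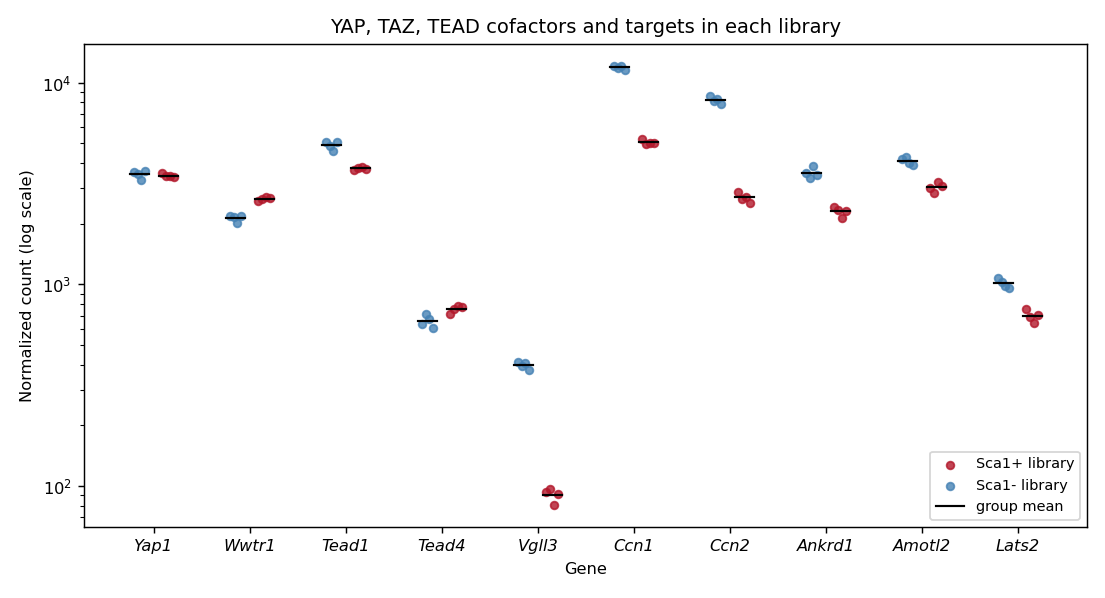
Normalized count (log axis) of the 10 genes in each of the 8 libraries, with Sca1- in blue, Sca1+ in red and black lines for group means. The groups overlap for Yap1 and are furthest apart for Vgll3, with 377.8 to 413.5 against 80.8 to 96.6.

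Yap1 encodes the coactivator YAP (ENSMUSG00000053110; GRCm38 chromosome 9, 7931999 to 8004596, minus strand). It had normalized counts of 3579, 3444, 3443 and 3391 in Sca1+ replicates 1 to 4 and 3603, 3514, 3306 and 3662 in Sca1- replicates 1 to 4. The ranges overlapped, and the lowest value of all was a Sca1- library. Its log2 fold change, Sca1+ over Sca1-, was -0.01 ± 0.04 (standard error), and it changed sign under other scalings. Such a value leaves room for differences of a few percent in either direction.

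Wwtr1 encodes TAZ, the paralog of YAP (ENSMUSG00000027803; chromosome 3, 57455649 to 57575910, minus strand). Its normalized counts were 2590, 2649, 2704 and 2692 in the Sca1+ libraries and 2191, 2166, 2017 and 2172 in the Sca1- libraries. Every Sca1+ library lay above every Sca1- library, and Sca1- replicate 3 was low. The log2 fold change was 0.33 ± 0.04, opposite in direction to the targets. In RPKM, reads per kilobase of exon scaled to library size, Wwtr1 had a level of 36.8 ± 0.643 in Sca1+ and 29.3 ± 1.07 in Sca1- cells (SD, n = 4), and Yap1 had a level of 24.7 ± 0.605 and 24.9 ± 1.09. TAZ mRNA was therefore the more abundant of the pair in both groups on this scale, which depends on the exon lengths used. In normalized counts, which are not divided by length, Yap1 was above Wwtr1 in both groups. The ratio of the Yap1 to the Wwtr1 level per length was 0.673 ± 0.0282 in Sca1+ and 0.851 ± 0.0139 in Sca1- cells. The summed level of the coactivators was 61.5 ± 0.195 against 54.2 ± 2.11.

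Tead1 and Tead4 encode TEAD transcription factors and moved in opposite directions. Tead1 (ENSMUSG00000055320; chromosome 7, 112679318 to 112906807, plus strand) had normalized counts of 3686, 3798, 3842 and 3722 in Sca1+ and 5092, 4847, 4576 and 5058 in Sca1- libraries. All 4 of the former were below all 4 of the latter, with a log2 fold change of -0.37 ± 0.04. Tead4 (ENSMUSG00000030353; chromosome 6, 128224288 to 128300823, minus strand) had 715, 754, 785 and 776 against 635, 713, 677 and 605. Its groups were parted by only 2.19 normalized counts, between Sca1+ replicate 1 and Sca1- replicate 2. The log2 fold change of Tead4 was 0.22 ± 0.06, and offsets corrected for GC content lowered it to 0.05, below the threshold.

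The other TEAD genes were not among the 10, and they and the lists that follow are given with p-values of the fit over all genes. These lists, too, were written with earlier results of the same libraries known, so their p-values are not independent evidence. Tead2 (normalized counts of 2184, 2284, 2771 and 2612 against 990.3, 1214, 1060 and 1082) rose by a log2 fold change of 1.19 ± 0.07 in Sca1+ cells, with an adjusted p of 2.63e-10 (edgeR) and no overlap. The 2 highest Tead2 values were Sca1+ replicates 3 and 4. Tead2 shares 13 exonic bases with Cd37 on the opposite strand, and the use of strand in counting is not given in the sources used here. Tead3 had a log2 fold change of 0.10 ± 0.07 with overlapping groups and an adjusted p of 0.226 (edgeR), and GC-corrected offsets gave -0.07.

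Per length, Tead2 took 46.9% ± 1.90 of the summed TEAD level in Sca1+ cells and 26.5% ± 1.44 in Sca1- cells (SD, n = 4). Tead1 took 25.4% ± 1.56 and 42.2% ± 2.40. On this scale the leading TEAD transcript was thus Tead2 in Sca1+ and Tead1 in Sca1- cells. The order depends on the exon lengths used, 13570 bases for Tead1 and 4788 for Tead2. In mean normalized counts Tead1 was above Tead2 in both groups, with 3762 against 2463 in Sca1+ and 4893 against 1086 in Sca1- cells. Tead4 held 19.3% ± 0.682 against 21.3% ± 1.29, and Tead3 held the least, 8.08% to 8.86% in the Sca1+ group against 9.61% to 10.2%. The summed TEAD level was 72.3 ± 5.05 in Sca1+ and 56.1 ± 1.93 in Sca1- cells on the same per-length scale. The part of TEAD levels in those of the targets was not tested.

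**Figure D3:**
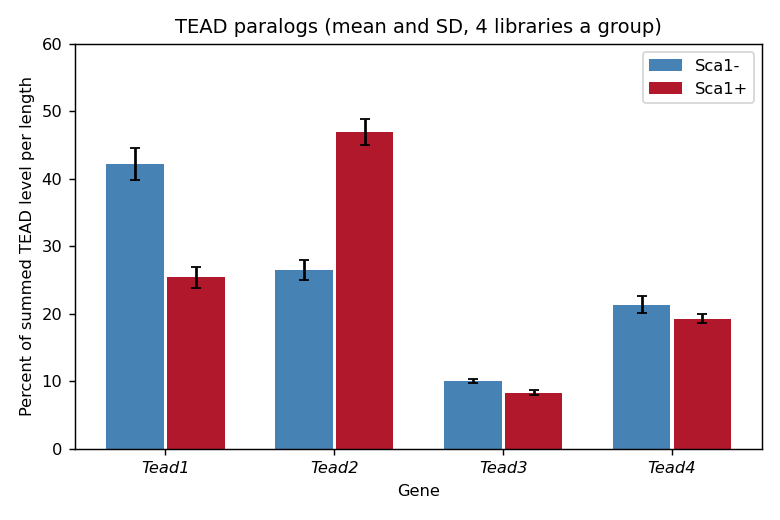
Share of the summed per-length level of the 4 TEAD genes held by each (bars, mean; error bars, SD of 4 libraries), with Sca1- in blue and Sca1+ in red. Per length, Tead2 leads in Sca1+ cells with 46.9% and Tead1 leads in Sca1- cells with 42.2%, while Tead1 has more normalized counts in both groups.

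Vgll3, a member of the vestigial-like family of TEAD-binding cofactors, showed the widest difference of the 10 genes. Vgll3 (ENSMUSG00000091243; chromosome 16, 65815257 to 65866368, plus strand) had normalized counts of 93.2, 96.6, 80.8 and 91.9 in Sca1+ and 413.5, 394.3, 409.6 and 377.8 in Sca1- libraries. The lowest Sca1- library was far above the highest Sca1+ library. The log2 fold change was -2.12 ± 0.08, or a level 4.35-fold lower in Sca1+ cells.

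Vgll4, a paralog that competes with YAP for TEADs, had normalized counts of 402 to 475 in Sca1+ and 350.5 to 432 in Sca1- libraries, which overlapped. Its log2 fold change of 0.19 ± 0.08 passed narrowly (adjusted p of 0.0404, edgeR) and did not hold in 9 of 18 alternatives. It was lost without Sca1+ replicate 2 (0.19), 3 (0.15) or 4 (0.19) and without Sca1- replicate 1 (0.13) or 3 (0.15). It was also lost with GC-corrected offsets (0.08), DESeq2 size factors, DESeq2 and the deposited normalized table. Per length, Vgll3 made up 13.6% ± 1.52 of the summed Vgll3 and Vgll4 level in Sca1+ cells and 43.9% ± 3.69 in Sca1- cells. Vgll1 and Vgll2 were not analysed here.

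Ccn1 and Ccn2 encode secreted matricellular proteins, formerly CYR61 and CTGF, and are the most used YAP/TAZ readouts. Ccn1 (ENSMUSG00000028195; chromosome 3, 145646976 to 145649981, minus strand) had normalized counts of 5288, 4952, 5053 and 5049.8 in Sca1+ and 12111, 11794, 12072 and 11611 in Sca1- libraries. The groups stood 6322 normalized counts apart at their nearest values, and the log2 fold change was -1.21 ± 0.04, or 2.32-fold lower in Sca1+ cells. Ccn2 (ENSMUSG00000019997; chromosome 10, 24595442 to 24598683, plus strand) had 2885, 2639.9, 2727 and 2542 against 8624, 8089.5, 8335 and 7852. The difference was larger for Ccn2, with a log2 fold change of -1.60 ± 0.05, or 3.02-fold lower.

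Per length, Ccn1 had a level of 167 ± 4.89 in Sca1+ and 386 ± 8.06 in Sca1- cells, and Ccn2 had 62.4 ± 3.40 and 188 ± 7.69 (SD, n = 4). Ccn1 remained the more abundant of the pair in both groups, by a ratio of 2.67 ± 0.0975 and 2.05 ± 0.0443. Set against the coactivators, the summed Ccn1 and Ccn2 level was 3.72 ± 0.125 times the summed Yap1 and Wwtr1 level in Sca1+ cells and 10.6 ± 0.596 times in Sca1- cells. The libraries of the groups did not overlap in this ratio, with a highest Sca1+ value of 3.91 and a lowest Sca1- value of 9.99. Because all 4 genes were chosen with this contrast known, that separation is a description and nothing further is read from it.

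Of the 4 other CCN genes, 3 were counted and tested, 2 rose and 0 fell, or 66.7% called, near the 61.5% over all genes. Ccn3 had normalized counts of 147, 184, 157 and 167 in Sca1+ and 95.5, 82.1, 99.1 and 74.2 in Sca1- libraries, a log2 fold change of 0.91 ± 0.11 (adjusted p of 2.16e-06, edgeR). Ccn5, which lacks the C-terminal domain of its paralogs, was scarce, with 17.4, 34.5, 53.9 and 42.9 against 3.82, 10.3, 4.45 and 5.71 normalized counts. It rose by a log2 fold change of 2.60 ± 0.38 (adjusted p of 1.39e-05, edgeR), but the Sca1- group held only 23 raw counts of it, and its difference is accordingly imprecise in size. Ccn4 had a log2 fold change of 0.08 ± 0.08 with overlapping groups and did not pass (adjusted p of 0.435, edgeR). Ccn6 was not analysed here.

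Ankrd1, Amotl2 and Lats2 were lower by smaller amounts. Ankrd1, which encodes an ankyrin repeat protein (ENSMUSG00000024803; chromosome 19, 36111961 to 36120099, minus strand), had normalized counts of 2412, 2347, 2133 and 2316 in Sca1+ and 3577, 3373, 3852 and 3486 in Sca1- libraries. The ranges did not overlap, and the log2 fold change was -0.62 ± 0.05.

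Amotl2 and Lats2 are targets that feed back on the pathway, since angiomotin-like proteins hold YAP and TAZ in the cytoplasm and LATS2 phosphorylates them. Amotl2 (ENSMUSG00000032531; chromosome 9, 102716672 to 102733418, plus strand) had 3019.8, 2833, 3235 and 3082 against 4182, 4294, 4009.6 and 3905 normalized counts. Its log2 fold change was -0.42 ± 0.05. Lats2 (ENSMUSG00000021959; chromosome 14, 57689662 to 57758388, minus strand) had 752, 688, 645 and 705 against 1077, 1027, 979.6 and 963, with a log2 fold change of -0.52 ± 0.06. In both genes each Sca1+ library was below each Sca1- library. Per length, Amotl2 took 27.2% ± 0.884 of the summed angiomotin family level (Amot, Amotl1 and Amotl2) in Sca1+ and 40.4% ± 1.01 in Sca1- cells. The ratio of the Lats2 to the Lats1 level was 0.348 ± 0.0192 against 0.384 ± 0.0207, and the libraries of the groups overlapped in this ratio, since Lats1 was also lower.

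The 10 genes differed in how steady they were between libraries of a group. Within groups their coefficient of variation ran from 1.88% (Tead1) to 7.57% (Vgll3) in Sca1+ and from 2.00% (Ccn1) to 7.17% (Tead4) in Sca1- libraries. The median over tested genes whose mean normalized count reached 100 was 6.05% and 5.26%. Vgll3 and Lats2 (6.33%) lay above it in Sca1+ libraries and Tead4 and Ankrd1 (5.72%) in Sca1- libraries, with the others below. Genes of like abundance were not compared.

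Other genes of a widely used YAP/TAZ target signature moved in both directions or did not pass. Of 17 such genes, 16 were counted and 13 were tested, of which 3 fell, 2 rose and 8 did not pass. That is 38.5% of those tested, against 61.5% over all genes, and the median log2 fold change was -0.09, against 0.01 over all genes tested. Myof, a ferlin of the plasma membrane, fell by 0.39 ± 0.04 on the log2 scale (adjusted p of 5.05e-07, edgeR). Nuak2, a kinase related to AMPK, fell by 0.40 ± 0.07, and Dock5, an activator of Rac, fell by 0.18 ± 0.05. Arhgef17 rose by a log2 fold change of 0.64 ± 0.06 (adjusted p of 1.50e-07, edgeR). Arhgef17 overlaps the microRNA gene Mir3102. The other gene that rose was Fjx1 (0.80 ± 0.21), which was below the level set for naming and is named because so few genes rose.

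Among the 8 that did not pass was Axl, a receptor tyrosine kinase and one of the best known targets, with normalized counts of 21924 to 23584 in Sca1+ and 23313 to 25726 in Sca1- libraries. Its log2 fold change was -0.07 ± 0.04 (adjusted p of 0.153, edgeR). Several of the 8 lay near the threshold, such as F3, Tgfb2, Gadd45a and Asap1, with adjusted p of 0.0501, 0.0509, 0.0545 and 0.0607 (edgeR). These 4 were picked after their values were seen. The counts also moved with the fit, to 4 higher without Sca1- replicate 1, where 14 genes were tested, to 6 lower without Sca1+ replicate 3 and to 5 lower without Sca1- replicate 4 or with the replicate number as a block. Foxf2, Ccdc80 and Rbms3 were below the filter, with 54 against 2, 22 against 6 and 14 against 25 raw counts over the 4 libraries of each group. Igfbp3 was not analysed here.

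**Figure D4:**
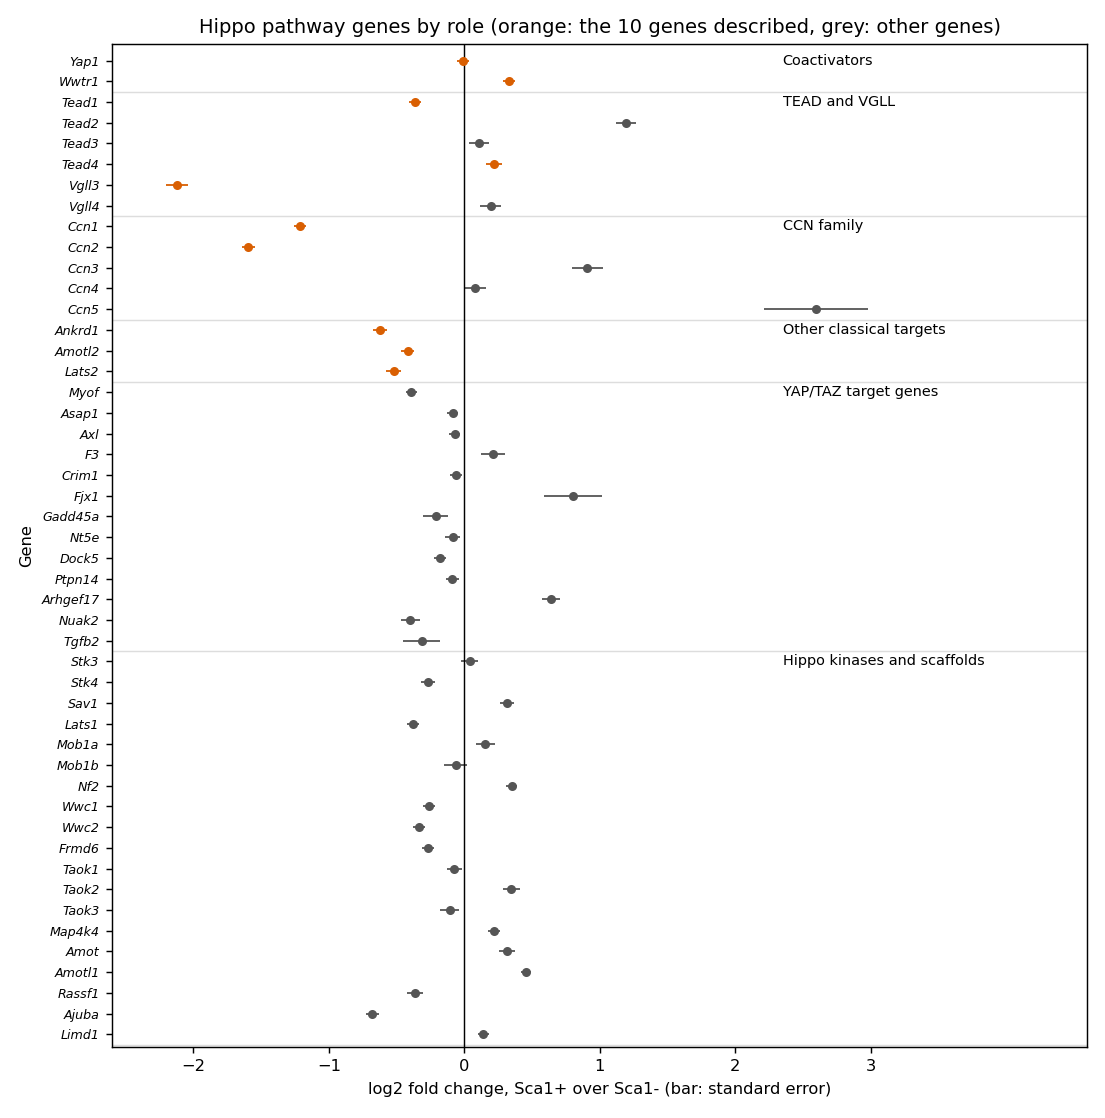
Log2 fold change, Sca1+ over Sca1-, with its standard error, for pathway genes grouped by role, with the 10 genes described here in orange and other tested genes in grey. Values of Ccn1, Ccn2 and Vgll3 lie below -1, whereas the other target genes and the Hippo kinases lie between -0.68 (Ajuba) and 0.80 (Fjx1). The paralogs Ccn5 (2.60), Tead2 (1.19) and Ccn3 (0.91) lie above that range.

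Upstream regulators differed in both directions. Of 20 Hippo kinases and scaffolds, 19 were counted and tested, 7 rose, 7 fell and 5 did not pass, or 73.7% against 61.5% over all genes, with a median log2 fold change of -0.06. The largest increase was that of Amotl1, which holds YAP in the cytoplasm, with 12276 ± 271 normalized counts in Sca1+ against 9035 ± 260.1 in Sca1- cells (SD, n = 4) and a log2 fold change of 0.46 ± 0.04 (adjusted p of 3.21e-08, edgeR). It moved opposite to its paralog Amotl2. Nf2, which encodes the upstream activator Merlin, rose by 0.35 ± 0.04 on the log2 scale and the kinase Taok2 by 0.35 ± 0.06. Ajuba, a LIM protein that binds and restrains LATS kinases, fell by 0.68 ± 0.05 on the log2 scale (adjusted p of 9.19e-10, edgeR), with 2579 ± 96.3 against 4165 ± 164 normalized counts. Lats1 fell by 0.38 ± 0.05 and the scaffold Rassf1 by 0.37 ± 0.06. None of these 19 genes reached a 2-fold difference. Wtip was not analysed here.

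Ccn1 is also an immediate early gene, induced within minutes by serum or cell handling, so such genes are given beside it. Of 12 immediate early genes, 4 rose, 5 fell and 3 did not pass (75% against 61.5% over all genes), with a median log2 fold change of -0.06. Their summed normalized count was 34304 to 38529 in Sca1+ and 36775 to 45153 in Sca1- libraries, which overlapped. Atf3, a stress-induced transcription factor, had the widest difference, with 272 to 295 against 1398 to 1658 normalized counts, at a log2 fold change of -2.42 ± 0.07 (adjusted p of 1.23e-14, edgeR). Zfp36 and Ier3 also fell, by 0.56 ± 0.07 and 0.46 ± 0.05, while Egr2 (1.17 ± 0.15), Ier2 (0.57 ± 0.09) and Egr1 (0.42 ± 0.05) rose. Fos had a log2 fold change of -0.06 ± 0.08 and Jun one of -0.07 ± 0.07, and neither passed. The part of these genes in the levels of Ccn1 and Ccn2 was not tested.

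Fibroblasts and endothelial cells make CCN proteins in abundance, so their markers were examined. Of 9 fibroblast markers, 7 were counted, with a summed normalized count of 634.5 to 671 in Sca1+ and 395 to 468 in Sca1- libraries, most of it Pdgfra, and Col1a2 and Fap had at most 10 counts in any library. Pdgfra (log2 fold change of 0.63 ± 0.07) and Col1a1 (0.75 ± 0.19) rose, and Postn (0.05 ± 0.24) did not pass. Below the filter, Dcn had 49 raw counts in the Sca1+ group against 4 in Sca1-, and Pdgfrb 27 against 1. Col1a2 had 19 against 18 and Fap 4 against 11. Of 7 endothelial markers, 6 were counted and summed to 34.7 to 43.9 against 42.3 to 66.2, with Pecam1, Cdh5, Tek and Vwf at 10 counts or fewer. Tie1, the only one tested, fell, with 20.7 to 28.9 against 33.4 to 47.9 normalized counts. Its log2 fold change was -0.60 ± 0.19 (adjusted p of 0.0121, edgeR). Of 10 leukocyte markers, 7 were counted and summed to 167 to 179 against 74.5 to 113. Among them, Ptprc, Itgam, Cd3e, Lyz2 and Fcer1g were at 10 counts or fewer. Cd74 (log2 fold change of 0.94 ± 0.13) and Csf1r (1.18 ± 0.20) made up most of the sum and rose. Csf1r shares exonic bases with Hmgxb3 on the opposite strand, and the use of strand in counting is not given. The part of Hmgxb3 reads in the Csf1r values was not tested. Epithelial markers were abundant in both groups, at 53622 to 58580.2 against 53149.9 to 57285 over 6 genes. Of the 6, 4 passed, or 66.7%, near the 61.5% over all genes. Krt18 (0.38 ± 0.04) and Krt8 (0.31 ± 0.04) rose on the log2 scale, Cdh1 (-0.69 ± 0.04) and Krt7 (-0.20 ± 0.04) fell, and Epcam (-0.03 ± 0.04) and Krt19 (0.01 ± 0.05) did not pass. The part of other cells in the values above was not tested.

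Patterns over the 8 libraries were compared by the root mean square difference of log2 CPM, each gene centred on its mean, over 9347 genes whose mean normalized count reached 100. Nearest to Ccn1 were Sorbs2, which encodes an actin-associated adaptor, at 0.0397 and Ddah1, an enzyme that breaks down methylated arginines, at 0.0483. Ddah1 had 1127 ± 32.4 normalized counts in Sca1+ and 2589.9 ± 76.4 in Sca1- cells, and is the neighbour of Ccn1 on chromosome 3, where it starts 108693 bases away with 0 counted genes lying wholly between them. Nearest to Ccn2 were the integrin gene Itgb6 (0.0847) and the kinase gene Plk2 (0.0994). Nearest to Yap1 were Dst (0.0208) and Sae1 (0.0233), and nearest to Wwtr1 were Sephs1 (0.0239) and Mras (0.0241). These values describe likeness in 8 libraries that fall into 2 groups, and mainly match genes of equal fold change.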

How the data were processed

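RNA of 4T1-Sca1+ (Sca1+) and 4T1-Sca1- (Sca1-) cells was sequenced, 4 libraries each. Per the submitters' processing notes, reads were handled with cutadapt 1.16 and STAR 2.5.3a on GRCm38. The counting tool, annotation and use of strand are not given in the sources used here. The authors deposited raw counts for 16341 genes and a table of normalized signal for 15372 genes, which equalled the counts divided by the DESeq2 size factor of each library. Neither held columns of other samples.

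Symbols, positions and exon lengths came from GENCODE M21 (GRCm38), where 16202 genes were found. Counts were tested with edgeR 4.0.16 in R 4.3.3 over all 11717 genes kept by filterByExpr, with TMM scaling, a two-sided quasi-likelihood test without covariates and Benjamini-Hochberg adjustment over all tested genes, called under 0.05. The standard error was the absolute log2 fold change divided by the square root of F. Per-length levels used the union of exons, as RPKM on TMM-scaled library sizes. Promoter windows came from RefSeq. The fit was tested on simulated data.

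The 10 genes and the lists, written from general knowledge, were chosen with earlier results of these data known. Besides the 10 genes, Ly6a and the TEAD, VGLL and CCN paralogs, the text names in each pathway list up to 3 called genes with the highest and up to 3 with the lowest log2 fold change at a mean normalized count of at least 50, and the 2 genes most like Yap1, Wwtr1, Ccn1 and Ccn2. Alternatives changed the scaling (DESeq2 size factors, library totals alone or upper quartile), the filter (none, or a minimum of 10 counts in all libraries), the tool (DESeq2 1.42.0, voom in limma 3.58.1, or limma on the log2 deposited signal with a pseudocount of 1) or the model (replicate block, GC-corrected offsets, each library left out).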

Additional observations from a re-analysis of the deposited data

Results flagged for a closer look

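In 1 of 64 groups of 4 libraries examined, 1 library lay far from the other 3, where about 1 in 20 is usual by chance. It was Sca1- replicate 3 for Wwtr1, with 2017 normalized counts where its 3 partners held 2166 to 2191. Without that library its log2 fold change, Sca1+ over Sca1-, was 0.30 ± 0.05.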

How the results depend on the processing

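The numbers of genes called over the whole table, and of Hippo kinases and scaffolds and immediate early genes, stayed within 1.5 times under all 18 alternatives. Among YAP/TAZ target genes, 4 were higher without a low-count filter and on the deposited normalized table, both with 16 genes tested. DESeq2 size factors and GC-corrected offsets gave 6 lower, and no low-count filter, the deposited table and the replicate block gave 5 lower. Across the 8 fits that each left out a library, the counts ran from 2 to 4 higher and from 3 to 6 lower. The TEAD and VGLL paralogs gave 1 higher with DESeq2 size factors, DESeq2, the deposited table and GC-corrected offsets, and 1 to 2 when libraries were left out, always by the loss of Vgll4. The CCN paralogs gave 1 higher with at least 10 counts in every library, a filter that removes Ccn5.

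Yap1 changed sign with library totals alone (0.0322), upper-quartile scaling (0.0185), at least 10 counts in every library (0.000469) and GC-corrected offsets (0.0564), and with 1 library left out it lay between -0.0410 and 0.0065. Tead3 changed sign with GC-corrected offsets (-0.0702). These offsets also moved Wwtr1 to 0.41, Tead1 to -0.31, Tead4 to 0.0452, Vgll3 to -2.01, Ccn1 to -1.26 and Amotl2 to -0.55, and library totals alone moved Ccn1 to -1.17. Library totals alone shifted the median of all genes by 0.04. The cause was not tested. Same-numbered libraries of the groups deviated from their means with correlations of -0.15 to 0.0957. These values show no pairing by number but cannot exclude one, since noise in the counts lowers such correlations. The replicate block changed no other count by over 1.5 times. Depth limits Ccn5, Foxf2, Ccdc80 and Rbms3.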
